A study of Mus musculus with 24 samples.

Results

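Transcripts of 10 enzymes that remove superoxide and peroxides were followed in kidneys of male and female mice: catalase (Cat), the superoxide dismutases Sod1, Sod2 and Sod3, the peroxiredoxins Prdx1, Prdx5 and Prdx6, and the glutathione peroxidases Gpx1, Gpx3 and Gpx4. They were chosen by symbol, with the Ensembl identifiers of the count files matched to symbols through the GENCODE annotation of GRCm38, and are 10 of the 55335 genes in the files. All 10 were found and all 10 passed the filter on low counts.

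Each kidney came from a different mouse on a C57BL/6J background. The cKOm group was 6 males and the cKOf group 6 females that carried Pex5lox/lox with the transgenes Pax8-rtTA and LC1, and the Ctrlm and Ctrlf groups were 6 male and 6 female littermates with Pex5lox/lox alone. All 4 groups were given doxycycline (DOX) for 2 weeks at 8 weeks of age, and RNA was taken from whole kidney 4 weeks after the treatment ended, at 14 weeks of age. Pax8-rtTA was used to switch on the Cre recombinase of LC1 in the renal tubule, and vessels, glomeruli and blood cells contribute to the same RNA. Since controls lacked both transgenes, effects of Pex5 deletion and of the transgenes under DOX cannot be told apart.

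Superoxide dismutases turn superoxide into hydrogen peroxide, which catalase splits without a partner, while peroxiredoxins and glutathione peroxidases reduce it with electrons from thioredoxin or glutathione. Cat sits in peroxisomes, which are dense in proximal tubule cells and whose own oxidases release hydrogen peroxide, and PEX5 carries enzymes with a type 1 targeting signal into them. Sod2 works in mitochondria, Sod1 and Prdx1 mainly in the cytosol, and the kidney is the main source of the Gpx3 found in plasma.

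The files hold 19376152 to 28470831 reads on genes for a kidney (median 21592601.5). Levels are in CPM, which puts the counts of all kidneys on the scale of one library size, adjusted by the TMM method. The smallest number of reads on any of the enzymes in a kidney was 1917, for Prdx6, and the largest was 1095182, for Gpx3. A filter of 1 CPM in any 1 kidney left 16092 genes to be tested with edgeR, and a gene was called at an adjusted p under 0.05 over the male and female tests together.

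Pex5 (ENSMUSG00000005069, chromosome 6 from 124396816 to 124415067) was used to check the genotype labels. Its reads were counted over all exons, including those outside the deleted stretch. The lowest, median and highest levels were 49.1, 53.3 and 62.8 CPM in Ctrlm kidneys and 41.8, 43.0 and 47.3 CPM in cKOm kidneys, which did not overlap. In females they were 43.0, 48.2 and 61.7 CPM in Ctrlf and 38.0, 44.1 and 48.5 CPM in cKOf kidneys, and these groups overlapped. The log2 fold change of Pex5 was -0.31 in males (edgeR adjusted p = 0.0219) and -0.21 in females (adjusted p = 0.177, unadjusted 0.0179). The male call was lost without Ctrlm 2 (adjusted p = 0.0657) or cKOm 4 (0.0508), while the male log2 fold change stayed between -0.37 and -0.27 in all 12 fits without 1 male kidney. The levels of Pex5 therefore separate the labelled genotypes in males kidney by kidney but not in females.

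Some kidneys stood apart from the rest of their groups before any enzyme was compared. In Ctrlm 5 and cKOf 6, the 283 genes with at most 1500 bases of exon and a mean of at least 20 CPM were high, with a median log2 deviation from the mean over kidneys of 0.48 and 0.46, against -0.15 to 0.17 in the other kidneys. The median deviation of the 10 enzymes was 0.56 in Ctrlm 5 and 0.31 in cKOf 6, against -0.20 to 0.31 in the other kidneys. In cKOf 6 it was above all other female kidneys, with the other cKOf kidneys at -0.20 to -0.06, and close to Ctrlm 1 (0.31). The highest of the other kidneys for short genes, at 0.17, was Ctrlf 4, with its enzymes at 0.15. In Ctrlm 2 and Ctrlf 5, the 50 most counted genes took the smallest share of reads in their groups, 29.4% and 25.6%. These 2 kidneys had the lowest Gpx3 and Sod3 and the highest Prdx1 of their groups. In cKOm 4, 34.8% of reads were not uniquely placed, against 26.9% to 30.5% in the other kidneys. Fits without Ctrlm 5 and cKOf 6, without Ctrlm 2 and Ctrlf 5, and without all 4 of these were added after seeing the data, and they are given where they change a call reported here.

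In males, 6 of the 10 enzymes were called lower in cKOm than in Ctrlm kidneys and 0 were called higher. Of all tested genes, 4.9% were called lower, 4.14% higher and 9.05% in either direction. At an unadjusted p under 0.05 in edgeR, 8 of the 10 enzymes differed, with 4039 genes in all, and 0 enzymes were called higher with limma-voom or DESeq2. The median log2 fold change was -0.38 over the enzymes and 0.01 over all tested genes. For 4 of the 10, Cat, Prdx1, Prdx5 and Gpx1, every cKOm kidney was below every Ctrlm kidney, which held for 3.69% of tested genes. The male effect varied with the length of exon sequence. Among genes with a mean of at least 20 CPM, the share called lower was 7.77% at up to 1500 bases, where Gpx1 falls, and 14.5% from there to 2500 bases, where Prdx5, Gpx3 and Gpx4 fall. It was 11.2% up to 4000 bases (Cat, Sod1, Sod3 and Prdx1), 5.98% up to 8000 bases (Prdx6) and 3.72% above that (Sod2). The median male log2 fold changes of these bins, in the same order, were -0.11, -0.11, -0.05, 0.04 and 0.12. Reads placed outside annotated exons were 4.58% to 5.98% in Ctrlm and 5.85% to 6.33% in cKOm kidneys, with overlap. The part of such differences between libraries in the enzyme levels was not tested. In bulk RNA, fewer cells of a type and less RNA per cell cannot be told apart.

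**Figure D1:**
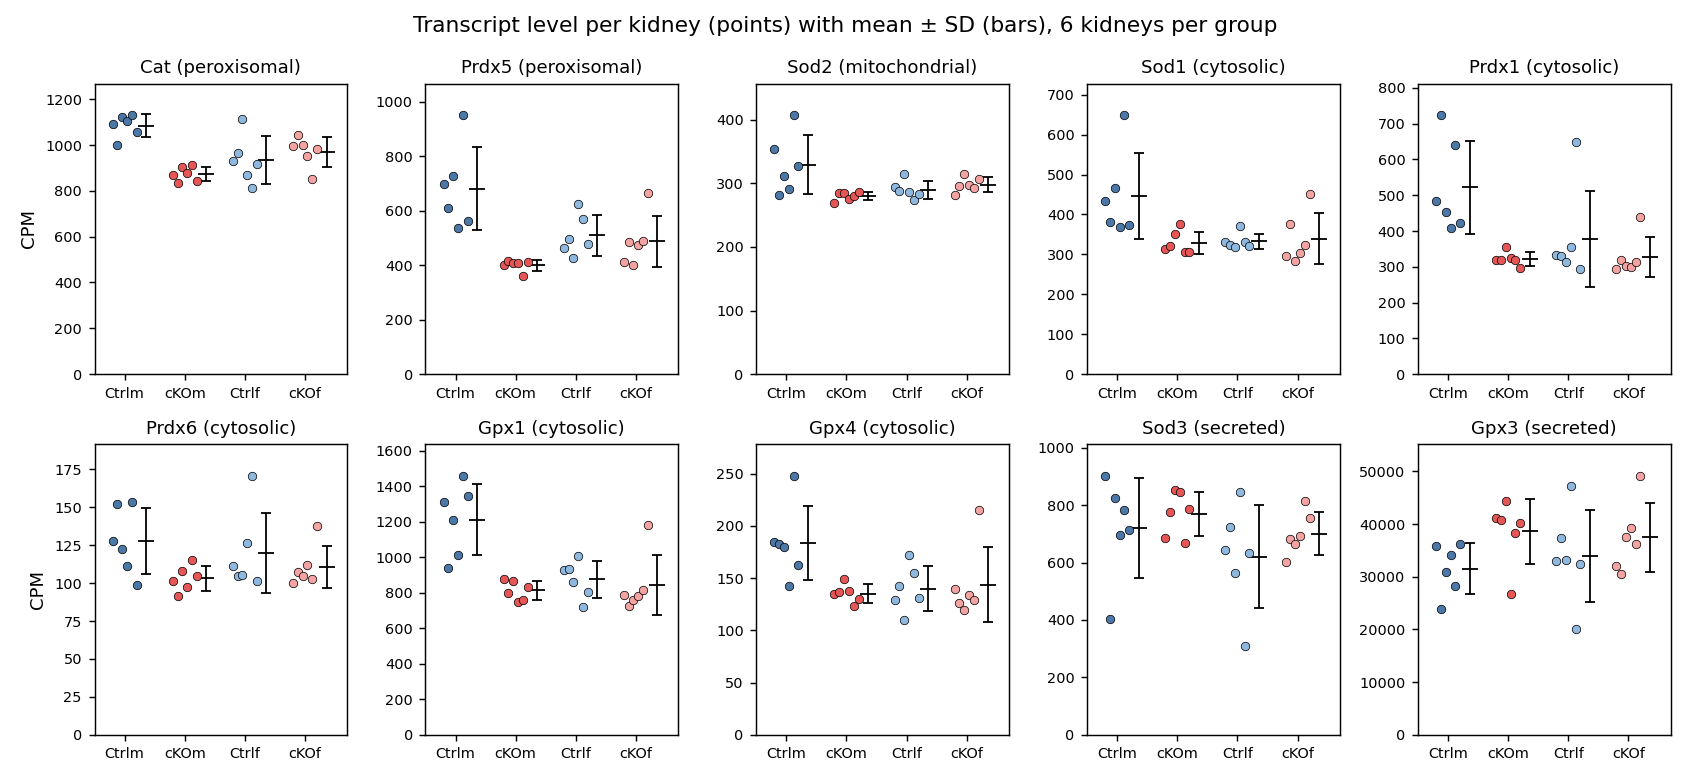
Level of each enzyme transcript in CPM (vertical axis) in the 6 kidneys of each group (points), with mean and SD (bars). All cKOm kidneys lie below all Ctrlm kidneys for Cat, Prdx5, Prdx1 and Gpx1, whereas Ctrlf and cKOf kidneys overlap in all 10 panels.

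Cat (ENSMUSG00000027187, chromosome 2 from 103453849 to 103485160) is the only catalase gene and its product is peroxisomal. Its lowest, median and highest levels were 1000.1, 1099 and 1132 CPM in Ctrlm kidneys and 835, 873 and 912 CPM in cKOm kidneys. The groups did not overlap, and both were tight, with Ctrlm 2 the lowest of the controls. The level fell by 19.5%, a log2 fold change of -0.31 (edgeR adjusted p = 0.00478, standard error 0.07), and the two-sided exact permutation test gave p = 0.00216, the smallest value that 6 kidneys against 6 can give. Its call was kept in each of the 12 fits that left out 1 male kidney (adjusted p from 0.00264 to 0.0162).

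Prdx5 (ENSMUSG00000024953, chromosome 19 from 6906697 to 6910106) encodes a peroxiredoxin found in peroxisomes and also in mitochondria and cytosol. Its levels were 536, 653 and 951 CPM in Ctrlm kidneys (lowest, median, highest) and 359.9, 408 and 413 CPM in cKOm kidneys. Control kidneys were spread out, with Ctrlm 5 highest, while 5 of the 6 cKOm kidneys lay between 400.0 and 413 CPM and cKOm 5 lay under them. Prdx5 had the largest male decrease of the 10, a fall by 0.77 on the log2 scale, with a 95% interval from -1.02 to -0.51 (edgeR adjusted p = 1.92e-04). The exact permutation p was again 0.00216. Without Ctrlm 5, the log2 fold change was -0.65, the smallest decrease over the 12 fits that left out 1 male kidney, and the highest adjusted p among these was 9.29e-04.

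Gpx1 (ENSMUSG00000063856, chromosome 9 from 108338903 to 108340343) is a mainly cytosolic glutathione peroxidase. Its levels were 940.0, 1259 and 1461 CPM in Ctrlm kidneys and 751, 816 and 879 CPM in cKOm kidneys. The highest cKOm kidney was cKOm 1, below Ctrlm 2, the lowest control. Gpx1 fell by 32.9%, a log2 fold change of -0.57 (edgeR adjusted p = 0.00167, standard error 0.11, exact permutation p = 0.00216). Over the fits without 1 male kidney the adjusted p ran from 4.99e-04 to 0.00661.

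Prdx1 (ENSMUSG00000028691, chromosome 4 from 116685544 to 116700822) is a cytosolic peroxiredoxin reduced by thioredoxin. Its levels were 409, 469 and 725 CPM in Ctrlm kidneys and 295, 319 and 356 CPM in cKOm kidneys. Ctrlm 2 and Ctrlm 5 were far above the other 4 controls, at 725 and 642 CPM, yet the lowest control also lay above the highest cKOm kidney. The log2 fold change was -0.70 (95% interval -1.03 to -0.37, edgeR adjusted p = 0.00793, exact permutation p = 0.00216). It was -0.58 without Ctrlm 2, still past the threshold (adjusted p = 0.0297), and -0.47 when Ctrlm 2, Ctrlm 5, Ctrlf 5 and cKOf 6 were all left out (4.14e-05).

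Sod1 (ENSMUSG00000022982, chromosome 16 from 90220754 to 90226329), the copper and zinc dismutase of the cytosol, ranged from 369 to 649.8 CPM in Ctrlm kidneys (median 408) and from 307 to 375 CPM in cKOm kidneys (median 316). Here the groups overlapped, since cKOm 4 lay above Ctrlm 4 and Ctrlm 6, and Ctrlm 5 was far above the other controls. The 5 other cKOm kidneys were below all controls. Sod1 had a log2 fold change of -0.44 (edgeR adjusted p = 0.0284, exact permutation p = 0.00649). This call was lost without Ctrlm 3 (0.0577), Ctrlm 5 (0.0982), cKOm 1 (0.0607), cKOm 2 (0.0597), cKOm 5 (0.0664) or cKOm 6 (0.0643), and the log2 fold change without Ctrlm 5 was -0.30. With both Ctrlm 5 and cKOf 6 left out, it passed (adjusted p = 0.0260). It did not pass with the replicate number as a block (0.0649) or with the hepatocyte score given below as a covariate (0.176).

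Gpx4 (ENSMUSG00000075706, chromosome 10 from 80047166 to 80056439) reduces lipid peroxides in membranes. It ranged from 143 to 248 CPM in Ctrlm kidneys (median 181) and from 123 to 149 CPM in cKOm kidneys (median 136). Only cKOm 3 reached into the control range, above Ctrlm 4. The log2 fold change of -0.44 was close to the threshold (edgeR adjusted p = 0.0479, exact permutation p = 0.00433). Leaving out 1 male kidney ended the call of Gpx4 in 10 of 12 fits (0.0557 to 0.151), and it was kept only without Ctrlm 4 (0.0226) or Ctrlm 6 (0.0315). Limma-voom also did not call it (0.0517), nor did the fits without Ctrlm 2 and Ctrlf 5 (0.0602) or without all 4 kidneys that stood apart (0.0508). The block for the replicate number and the hepatocyte covariate ended the call as well.

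Prdx6 (ENSMUSG00000026701, chromosome 1 from 161240112 to 161251219), a cytosolic peroxiredoxin that uses glutathione, was the least abundant of the 10 in CPM. It ranged from 99.0 to 154 CPM in Ctrlm kidneys and from 91.7 to 115 CPM in cKOm kidneys, with overlap. Its log2 fold change was -0.31 (95% interval -0.55 to -0.06) and did not pass (edgeR adjusted p = 0.167, exact permutation p = 0.0260). In the 12 fits without 1 male kidney it ran from -0.40 to -0.25. The 12 other alternatives gave -0.34 to -0.17, and Prdx6 was not called in any of these fits.

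Sod2 (ENSMUSG00000006818, chromosome 17 from 13006846 to 13040063) is the manganese dismutase of the mitochondrial matrix. Its levels were 282, 319.8 and 408 CPM in Ctrlm kidneys and 269.7, 282 and 286 CPM in cKOm kidneys. The cKOm kidneys were close together, and 3 of the 6 were below every control. The log2 fold change was -0.23 (standard error 0.07) and missed the threshold (edgeR adjusted p = 0.0631, exact permutation p = 0.00866). Sod2 passed it without Ctrlm 2 (0.0217), Ctrlm 4 (0.0343) or Ctrlm 6 (0.0472), with DESeq2 (0.0158), with RLE normalization (0.0428), with genes at 1 CPM or more in at least 6 kidneys (0.0355), and with adjustment within each sex (0.0350). It also passed without Ctrlm 2 and Ctrlf 5 (0.0116) and without all 4 kidneys that stood apart (0.0256).

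Sod3 (ENSMUSG00000072941, chromosome 5 from 52363791 to 52371418) is the dismutase secreted to the extracellular matrix. It ranged from 403 to 903 CPM in Ctrlm kidneys (median 749) and from 668 to 851 CPM in cKOm kidneys (median 781). The low control was Ctrlm 2, and every other control was within or above the cKOm range. The log2 fold change of Sod3 was 0.09, with a 95% interval from -0.25 to 0.44 (edgeR adjusted p = 0.861), and its sign turned without Ctrlm 2 (-0.03), without both Ctrlm 2 and Ctrlf 5 (-0.05) and without all 4 kidneys that stood apart (-0.04).

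Gpx3 (ENSMUSG00000018339, chromosome 11 from 54902453 to 54910377), the secreted glutathione peroxidase, was by far the most abundant of the enzymes. Its levels were 23816, 32541 and 36314 CPM in Ctrlm kidneys and 26696, 40549.8 and 44371 CPM in cKOm kidneys. Of the 6 cKOm kidneys, 5 were above every control and cKOm 4 was below 5 of the controls. The log2 fold change was 0.29 (95% interval -0.02 to 0.60) and did not pass (edgeR adjusted p = 0.357, exact permutation p = 0.0779). Without cKOm 4 it was 0.38 (adjusted p = 0.184), the highest of the 12 fits without 1 male kidney, of which the lowest was 0.22. The 12 other alternatives gave 0.16 to 0.31.

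By compartment, both peroxisomal enzymes, Cat and Prdx5, were called lower in males, with a median log2 fold change of -0.54. Of the 5 mainly cytosolic enzymes, Sod1, Prdx1, Prdx6, Gpx1 and Gpx4, 4 were called lower, and the median was -0.44. Sod2, the only enzyme assigned to mitochondria, was at -0.23 and not called. Each enzyme was assigned to a single compartment, although Prdx5, for example, is also found in mitochondria and cytosol. The secreted enzymes, Sod3 and Gpx3, had a median of 0.19 and neither was called. Members of a compartment are not replicates, so no test was made between compartments.

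**Figure D2:**
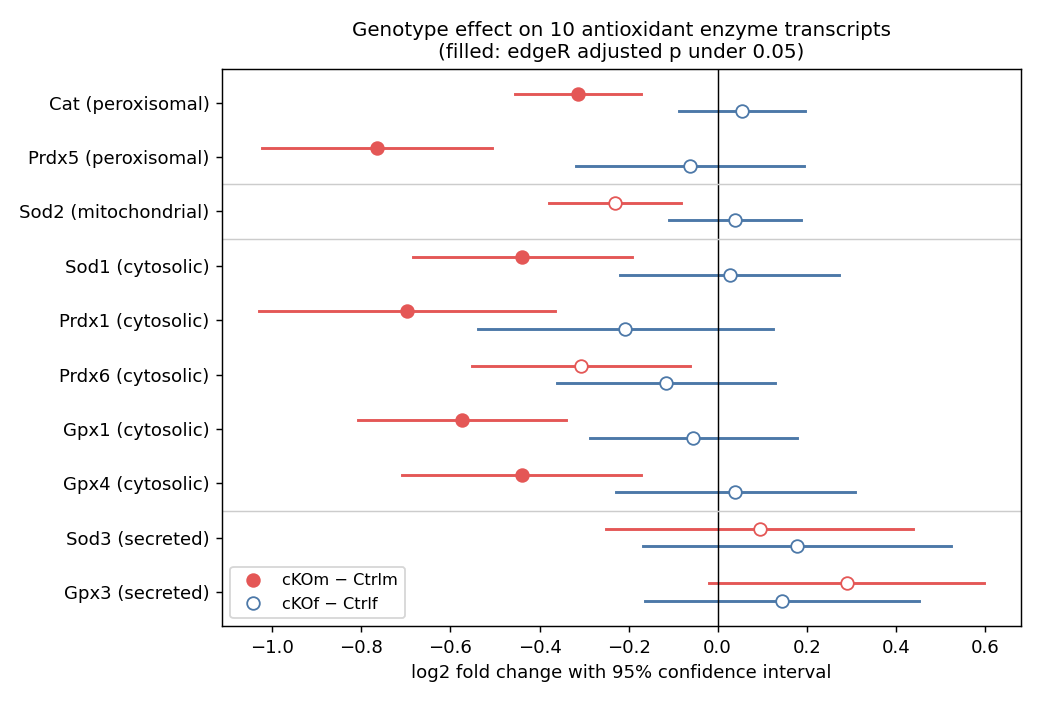
Log2 fold change of cKO against Ctrl kidneys (horizontal axis) for each enzyme in males and females, with 95% intervals from edgeR as bars and filled points for an adjusted p under 0.05. The 6 filled points are all in males, from -0.77 for Prdx5 to -0.31 for Cat, and the female intervals all include 0.

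In females, 0 of the 10 enzymes were called with edgeR, against 0.851% of all tested genes. At an unadjusted p under 0.05 the number was 0 of 10, with 1083 genes in all, and limma-voom and DESeq2 each called 0 of 10. The median log2 fold change over the enzymes was 0.03, and over all tested genes it was 0.00. All 10 pairs of groups overlapped, where 0.292% of tested genes were lower without overlap and 0.267% higher, and the exact permutation p ran from 0.301 for Sod2 to 0.942 for Sod1.

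Cat in females was 811, 923 and 1115 CPM in Ctrlf kidneys (lowest, median, highest) and 853, 988 and 1044 CPM in cKOf kidneys. Its female log2 fold change of 0.06 had a 95% interval from -0.09 to 0.20, which lies above the male estimate of -0.31. Prdx5 was 424, 486 and 625.3 CPM in Ctrlf and 402, 478 and 664 CPM in cKOf kidneys. The female interval of Prdx5, from -0.32 to 0.19, also lies above its male estimate of -0.77. Gpx1 was 719.6, 895 and 1010.0 CPM in Ctrlf and 728, 787 and 1181 CPM in cKOf kidneys. In cKOf 6, Gpx1 was the highest of the female kidneys, and the other cKOf kidneys reached 819 CPM. The female log2 fold change was -0.06 for Gpx1 (95% interval -0.29 to 0.18) and -0.06 for Prdx5. In the 12 fits without 1 female kidney, Gpx1 ran from -0.18 to -0.02 and Prdx5 from -0.17 to -0.001. The 12 other alternatives took Gpx1 from -0.23 to -0.06.

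The largest female estimate in size was that of Prdx1, at -0.21 (95% interval -0.54 to 0.12, edgeR adjusted p = 0.603). Its Ctrlf levels were 293 to 355 CPM in 5 kidneys and 648 CPM in Ctrlf 5, and without Ctrlf 5 the log2 fold change was 0.01. Prdx6 behaved alike, with 171 CPM in Ctrlf 5 and a log2 fold change of -0.12, which was 0.01 without that kidney. Sod1 ranged from 318 to 370.5 CPM in Ctrlf and from 285 to 452 CPM in cKOf kidneys, and its log2 fold change of 0.03 became -0.07 without cKOf 6 and -0.00 without cKOf 2. Gpx4 turned in the same way, from 0.04 to -0.02 without Ctrlf 3 and to -0.11 without cKOf 6, which held 215 CPM of Gpx4 against at most 139.7 CPM in the other cKOf kidneys. Sod2 ranged from 274 to 316 CPM in Ctrlf and from 282 to 315 CPM in cKOf kidneys, a log2 fold change of 0.04. Sod3 was at 309 CPM in Ctrlf 5 and at 564 CPM or more in the other 11 female kidneys, with a log2 fold change of 0.18, which was 0.04 without Ctrlf 5. Gpx3 spread from 20107 to 47218 CPM in Ctrlf and from 30576 to 49230.4 CPM in cKOf kidneys, with a log2 fold change of 0.14, which was 0.03 without Ctrlf 5 and -0.06 without all 4 kidneys that stood apart.

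Whether the effect differed between the sexes was tested by the interaction of genotype and sex. It was called for Cat and Prdx5, 2 of the 10 enzymes, both with a lower value in males, against 2.31% of tested genes in either direction and 1.49% in that direction. At an unadjusted p under 0.05 it was 7 of 10, with 2159 genes in all. For Cat the male minus female difference in log2 fold change was -0.37 (edgeR adjusted p = 0.0395, standard error 0.10), and for Prdx5 it was -0.70 (edgeR adjusted p = 0.0293, standard error 0.18). Both calls were fragile, although the differences themselves stayed between -0.43 and -0.35 for Cat and between -0.78 and -0.58 for Prdx5 in the 24 fits that left out 1 kidney. The call of Cat was lost in 15 of these fits (0.0553 to 0.0755) and was kept only without Ctrlm 2, Ctrlm 6, cKOm 5, Ctrlf 2, Ctrlf 3, Ctrlf 4, Ctrlf 5, cKOf 5 or cKOf 6 (0.00793 to 0.0497). It was also lost when every gene with a count was tested (0.123). That of Prdx5 was lost without Ctrlm 3 (0.0510), Ctrlm 5 (0.0534), cKOm 5 (0.0577), Ctrlf 3 (0.0573) or Ctrlf 6 (0.0527). With both Ctrlm 5 and cKOf 6 left out, neither Cat (0.0705) nor Prdx5 (0.0674) passed. Over the 10 alternatives other than leaving out 1 kidney, the difference of Cat ran from -0.39 to -0.35. For Prdx5 the difference ran from -0.79 to -0.48, a wider range than in the fits without 1 kidney.

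Differences of the other 8 enzymes did not pass. They were -0.52 for Gpx1 (edgeR adjusted p = 0.0920), -0.49 for Prdx1 (0.346), -0.48 for Gpx4 (0.219) and -0.47 for Sod1 (0.184). Sod2, Prdx6, Sod3 and Gpx3 were at -0.27, -0.19, -0.08 and 0.15 (adjusted p = 0.206, 0.678, 0.915 and 0.816). Several sizes depended on the setting, over the 10 alternatives other than leaving out 1 kidney. Sod1 ran from -0.53 to -0.23, Gpx4 from -0.54 to -0.22 and Gpx1 from -0.56 to -0.34. Prdx1 ran from -0.62 to -0.32 and Prdx6 from -0.29 to -0.06. The sign of Gpx3 alone was positive, and that of Sod3 turned without Ctrlf 5 (0.04) and with the hepatocyte score as a covariate (0.04). Gpx1 passed without Ctrlm 2 (0.0382), without Ctrlm 2 and Ctrlf 5 (0.0487) and with DESeq2 (0.0327). Prdx1 passed without Ctrlf 5 (0.0203), without Ctrlm 2 and Ctrlf 5 (0.0288) and without all 4 kidneys that stood apart (0.0221).

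Control kidneys of the sexes were compared as a further question, since the interaction rests on them too. This comparison shares the Ctrlm and the Ctrlf kidneys with the comparisons above, so the values are only set side by side. Of the 10 enzymes, 6 were called higher in Ctrlm than in Ctrlf kidneys and 0 lower, against 8.71% and 8.11% of tested genes and 16.8% in either direction. At an unadjusted p under 0.05 there were 7 of 10 enzymes and 4519 genes, and limma-voom and DESeq2 each called 6 higher and 0 lower. The log2 differences were 0.47 for Gpx1 (edgeR adjusted p = 0.00389), 0.47 for Prdx1 (0.0469), 0.42 for Sod1 (0.0140), 0.42 for Prdx5 (0.0196), 0.39 for Gpx4 (0.0379) and 0.22 for Cat (0.0299). For all 10 enzymes the Ctrlm and Ctrlf kidneys overlapped, where 3.95% of tested genes were higher without overlap and 3.4% lower. Medians in cKOm kidneys were near those in female kidneys for Sod1, at 316 CPM beside 327 in Ctrlf and 313 in cKOf kidneys, and for Gpx4, at 136 beside 137 and 131 CPM. The same held for Prdx1, at 319 beside 331 and 308 CPM. For Gpx1 the cKOm median, 816 CPM, lay between 895 CPM in Ctrlf and 787 CPM in cKOf kidneys. For Cat and Prdx5 the cKOm medians, 873 and 408 CPM, were below those of both female groups.

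These differences between control kidneys also leaned on single kidneys and on settings. Gpx1 was called in each of the 12 fits without 1 control kidney, with an adjusted p of at most 0.0139. Without Ctrlm 5 it was the only enzyme called, as Sod1 (0.0576), Prdx5 (0.0806), Cat (0.0580), Prdx1 (0.122) and Gpx4 (0.137) all missed the threshold. Prdx5 also missed it without Ctrlf 3 (0.0537), and Cat without Ctrlm 1 (0.0504), Ctrlm 3 (0.0620), Ctrlm 4 (0.0518), Ctrlf 1 (0.0517) or Ctrlf 6 (0.0573). Without both Ctrlm 5 and cKOf 6, Cat (0.0504) and Prdx1 (0.0928) missed it. Prdx1 also missed it with DESeq2 (0.0708), Cat when every gene with a count was tested (0.0825), and Gpx4 with the replicate number as a block (0.0615). With 1 control kidney left out, Prdx1 was kept only without Ctrlm 3 (0.0460), Ctrlm 4 (0.0296), Ctrlm 6 (0.0289) or Ctrlf 5 (2.35e-04), and Gpx4 only without Ctrlm 4 (0.0173), Ctrlm 6 (0.0270), Ctrlf 4 (0.0176) or Ctrlf 5 (0.0296). Sod2, at 0.18 (adjusted p = 0.0875), passed without Ctrlm 2 (0.0297) or Ctrlm 4 (0.0467), without both Ctrlm 2 and Ctrlf 5 (0.0369) and with DESeq2 (0.0374).

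Levels of different enzymes were compared per kilobase of exon sequence (CPM per kb). In Ctrlm kidneys, Gpx3 was highest at 17415 ± 2698 CPM per kb (SD, n = 6), followed by Gpx1 at 842 ± 140.0, Cat at 415 ± 19.1 and Prdx5 at 318 ± 71.3. Sod3 had 193 ± 46.2 CPM per kb, Prdx1 172 ± 42.7, Sod1 112 ± 27.0, Gpx4 106 ± 20.6, Sod2 32.9 ± 4.66 and Prdx6 26.6 ± 4.56 (SD, n = 6). Neighbours in this order overlapped between kidneys for Cat and Prdx5, for Sod3 and Prdx1, for Prdx1 and Sod1, for Sod1 and Gpx4, and for Sod2 and Prdx6. The order in cKOm kidneys was the same except that Sod3, at 206 ± 20.8, stood ahead of Prdx5, at 187 ± 9.42 (SD, n = 6), and these overlapped. Exon sequence summed over transcripts overstates the length of Sod1, with 3970 bases against 641 in its main transcript, and the order depends on the length used. Per kb of main transcript, it was Gpx3 (19808), Gpx1 (1132), Sod1 (695), Prdx5 (539), Cat (415), Prdx1 (228), Sod3 (193), Gpx4 (191), Sod2 (56.2) and Prdx6 (53.5) in Ctrlm kidneys.

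Transcripts typical of liver cells varied between the male kidneys, so the enzymes were set beside them. Of 18 hepatocyte markers, 4 were called lower in cKOm kidneys and 0 higher, Alb, Apoa2, Fgg and Cyp2e1, with log2 fold changes of -2.38, -1.91, -1.21 and -1.16. Summed over the list, levels were 1648 to 4090 CPM in Ctrlm kidneys, 817 to 1354 CPM in cKOm kidneys, 179 to 295 CPM in Ctrlf kidneys and 207 to 292 CPM in cKOf kidneys. Cyp2e1 made up most of these sums in males, and without it they were 124 to 1072 CPM in Ctrlm and 98.7 to 582 CPM in cKOm kidneys, with overlap. Of the 18 genes, 7 were at 1 CPM or more in every kidney. Alb was 224 to 662 CPM in Ctrlm 1 to Ctrlm 4 and 235 CPM in cKOm 4, and 15.1 to 60.2 CPM in all other kidneys. In Ctrlm 6, Cyp2e1 was still at 1524 CPM while Ahsg was at 0.285 and Tat at 0.0476 CPM. Cyp2e1 was at 772 CPM in cKOm 4. It ranged from 1396 to 3018 CPM in Ctrlm, 702 to 1096 in cKOm, 60.2 to 198 in Ctrlf and 72.9 to 143 CPM in cKOf kidneys. Apoh was at 1.29 CPM or more in every male kidney and at most 0.958 CPM in every female kidney. The list sums and the score may thus include RNA made in the kidney itself, which was not tested. The call of Alb was kept only without Ctrlm 4, Ctrlm 5, Ctrlm 6 or cKOm 4 and otherwise lost (edgeR adjusted p from 0.0704 to 0.0964), and that of Fgg was lost without Ctrlm 1, Ctrlm 3, cKOm 2, cKOm 3, cKOm 5 or cKOm 6 (0.0516 to 0.0850). Alb also missed the threshold with limma-voom (0.124), with each sex fitted alone (0.115), with a block for the replicate number (0.0681) and without both Ctrlm 2 and Ctrlf 5 (0.0799), and Fgg with each sex fitted alone (0.0587).

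The lowest hepatocyte scores of the male controls (mean log2 CPM of the list) were 2.39 in Ctrlm 5, which also stood apart for its high enzyme levels, and 1.56 in Ctrlm 6. In these kidneys, Cat was at 1132 and 1055 CPM, above all cKOm kidneys. Prdx5 was at 951 and 561 CPM, Gpx1 at 1461 and 1347 CPM and Prdx1 at 642 and 421 CPM, also above all cKOm kidneys, as were Sod2 and Gpx4. In Ctrlm 6, Sod1 was at 374 CPM, just under cKOm 4, and Prdx6 was at 99.0 CPM, the lowest of the controls and below 4 of the 6 cKOm kidneys. Sod3 and Gpx3 were within the cKOm range in both. In cKOm 4, with a score of 4.47, Cat was at 877 CPM, within the range of the other cKOm kidneys, while Sod1 was the highest and Gpx1 and Gpx3 were the lowest of the group. With the score as a covariate in edgeR, Cat had a log2 fold change of -0.32 (adjusted p = 0.0341), Prdx5 of -0.72 (0.00456), Gpx1 of -0.58 (0.0132) and Prdx1 of -0.70 (0.04996, just under the threshold). Sod1 at -0.39 (0.176) and Gpx4 at -0.40 (0.220) did not pass, nor did the interactions of Cat at -0.38 (0.0910) and Prdx5 at -0.66 (0.103) or the male difference of Pex5 at -0.31 (0.126). For Cat and Pex5 these log2 values were near those without the covariate, while their standard errors rose from 0.10 to 0.11 and from 0.08 to 0.10. Of the differences between control kidneys, only that of Gpx1 passed with the covariate (0.0445), at 0.48. Those that did not pass were at 0.23 for Cat (0.154), 0.35 for Sod1 (0.192), 0.36 for Prdx5 (0.211), 0.47 for Prdx1 (0.230) and 0.34 for Gpx4 (0.266), and for Cat the standard error rose from 0.07 to 0.10. The part that liver cells have in the enzyme levels was not tested.

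**Figure D3:**
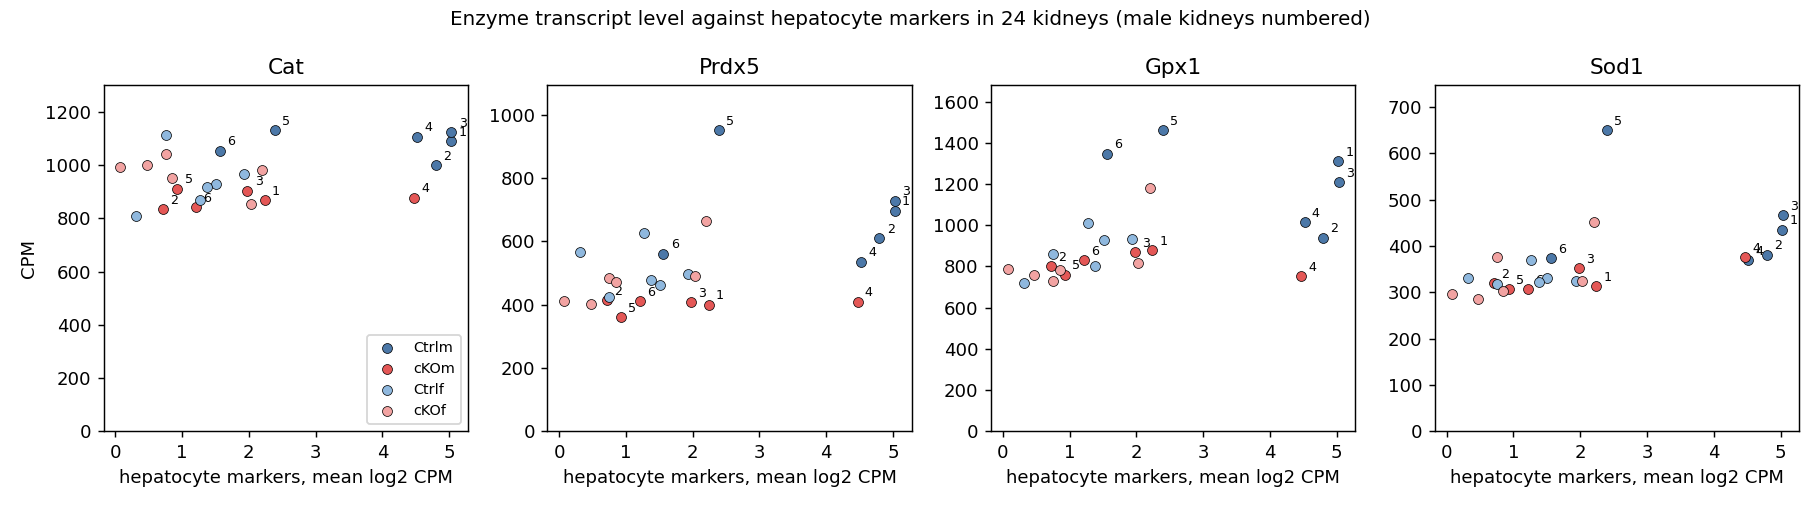
Level of Cat, Prdx5, Gpx1 and Sod1 in CPM (vertical axes) against the mean log2 CPM of 18 hepatocyte markers (horizontal axis) in 24 kidneys, with male kidneys numbered within their group. Ctrlm 5 and Ctrlm 6, at 2.39 and 1.56 on the horizontal axis, lie above all cKOm kidneys for Cat, Prdx5 and Gpx1, and for Sod1 Ctrlm 6 lies just under cKOm 4.

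Markers of kidney cell types were present at high levels. Proximal tubule markers, where Cat is abundant, summed to 10648 to 11994 CPM in Ctrlm kidneys and 8509 to 9409 CPM in cKOm kidneys, without overlap, and to 10472 to 11768 CPM in Ctrlf and 9792 to 10906 CPM in cKOf kidneys. The most abundant was Slc34a1, and 5 of 10 were called lower in males and 0 higher, with log2 fold changes of -2.26 for Slc7a13, -0.65 for Slc22a6, -0.38 for Aqp1, -0.33 for Slc34a1 and -0.33 for Lrp2. In males, limma-voom and DESeq2 each called 5 lower and 1 higher. In females 0 of 10 were called with each of the 3 tools, with 2 of 10 at an unadjusted p under 0.05 in edgeR. Lrp2 was lost without cKOm 3 (edgeR adjusted p = 0.0602) and when every gene with a count was tested (0.0540). With the hepatocyte score as a covariate, Slc34a1 at -0.30 (0.103) and Aqp1 at -0.31 (0.189) did not pass. Of the 10, only Slc7a13 was near 0, in females, where it ran from 0.0986 to 6.01 CPM. The part that a change in tubule cells has in the lower enzyme levels was not tested.

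Among the other cell types in males, 1 of 8 distal nephron markers was called higher (Slc12a1, log2 fold change 0.33; the most abundant was Umod), and the list summed to 4610.3 to 6639 CPM in Ctrlm and 6273 to 7125 CPM in cKOm kidneys. Slc12a1 missed the threshold when every gene with a count was tested (0.0925) and with the hepatocyte covariate (0.134). Called in males with edgeR were 0 of 5 podocyte markers (most abundant Podxl), 0 of 6 endothelial markers (Flt1), 0 of 5 tested of 6 erythroid markers (Hba-a1), 0 of 6 tested of 7 adipocyte markers (Car3) and 0 of 1 tested of 6 adrenal markers (Star, with Cyp11b2 at 0 counts in every kidney). Of 6 tested of 7 leukocyte markers, Csf1r, also the most abundant, was called lower, at -0.34 (edgeR adjusted p = 0.0399). That call was kept only without Ctrlm 4, Ctrlm 5, Ctrlm 6, cKOm 3 or cKOm 4 and lost in the other fits without 1 male kidney (0.0554 to 0.106) and with the hepatocyte covariate (0.285, log2 fold change -0.28). Of these 5 lists, 1 podocyte and 1 endothelial marker had an unadjusted p under 0.05 in edgeR, and only the endothelial one had a gene called by another tool, 1 lower with DESeq2. In females 0 genes of these lists or of the distal and leukocyte ones were called with edgeR, limma-voom or DESeq2, and 2 leukocyte markers had an unadjusted p under 0.05 in edgeR.

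Cell markers also differed between the control kidneys of the sexes. With edgeR, 17 of 18 hepatocyte markers were called higher in Ctrlm than in Ctrlf kidneys and 0 lower (11 and 0 with limma-voom), and of the proximal tubule markers 3 were called higher and 3 lower. Called lower were 4 of 8 distal nephron and 4 of 5 podocyte markers, with 0 higher. The sums in Ctrlm and Ctrlf kidneys were 4610.3 to 6639 and 7151 to 7968 CPM for the distal nephron, and 425 to 539 and 518 to 661 CPM for podocytes. In the erythroid, adipocyte, adrenal, endothelial and leukocyte lists 0 genes were called with edgeR or DESeq2, limma-voom called 1 adipocyte marker higher, and 3 erythroid markers had an unadjusted p under 0.05 in edgeR.

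Partners that supply the peroxidases with electrons, other peroxidases and related genes were taken as a list of 21 further thiol and peroxidase genes. Of these, 19 were tested. Gpx2 and Gpx5, at no more than 16 and 6 counts in any kidney, were not. In males, 2 were called higher and 2 lower (2 and 3 with DESeq2), and the median log2 fold change was -0.08. None of the tested peroxidases of this list was called in males with edgeR. Log2 fold changes were -0.44 for Prdx3 (edgeR adjusted p = 0.0893), -0.40 for Prdx4 (0.280) and -0.07 for Prdx2 (0.853). Those of Gpx6, Gpx8 and Gpx7 were -0.08, -0.06 and -0.03 (adjusted p = 0.878, 0.868 and 0.978). Txn1, the thioredoxin that reduces Prdx1, went from 92.3 ± 27.1 CPM in Ctrlm to 58.1 ± 4.56 CPM in cKOm kidneys (SD, n = 6), a log2 fold change of -0.67 (edgeR adjusted p = 0.0116). Txnip, which binds and blocks thioredoxin, went the other way, from 378 ± 47.6 to 619 ± 79.2 CPM (SD, n = 6), which is a log2 fold change of 0.71 (edgeR adjusted p = 0.00115). Srxn1, which repairs overoxidized peroxiredoxins, had 53.5 ± 4.29 and 67.3 ± 4.97 CPM (SD, n = 6), which is a log2 fold change of 0.33 (edgeR adjusted p = 0.00866). Gsr, which regenerates the glutathione that Gpx1 uses, went from 178 ± 11.02 to 117 ± 12.4 CPM (SD, n = 6, log2 fold change -0.60, edgeR adjusted p = 9.59e-05). Txn1 lost its call with the hepatocyte covariate (0.0839) and Srxn1 without Ctrlm 6 (0.0519). The male log2 fold change of Txn1 ran from -0.70 to -0.39 over the 12 alternatives other than leaving out 1 kidney. In females 0 of 19 were called, although Gsr passed without Ctrlf 5 (0.0278), and without Ctrlm 2 and Ctrlf 5 (0.0316). The female number at an unadjusted p under 0.05 in edgeR was 3 of 19, and limma-voom and DESeq2 also called 0. The interaction was called for 0 of 19 with each of the 3 tools, and 5 of 19 had an unadjusted p under 0.05 in edgeR.

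Peroxisomal oxidases make the hydrogen peroxide that Cat removes. Of 10 in the list, all tested, 2 were called lower in males (3 with DESeq2) and 0 higher, with a median log2 fold change of -0.36. Acox3 went from 308 ± 41.0 CPM in Ctrlm to 149.9 ± 6.51 CPM in cKOm kidneys (SD, n = 6), and Pipox from 429 ± 44.9 to 291 ± 15.6 CPM (SD, n = 6). Their log2 fold changes were -1.04 and -0.56 (edgeR adjusted p = 1.19e-09 and 3.01e-04). In females Acox3 was the only one called, at -0.29 (edgeR adjusted p = 0.0198), lost without Ctrlf 5 (0.0504), without Ctrlm 2 and Ctrlf 5 (0.0613) and with adjustment within each sex (0.140). Interactions were called for Acox3, at -0.74 (edgeR adjusted p = 1.39e-04), and for Pipox, at -0.50 (0.0422). That of Pipox was kept only without Ctrlm 6, cKOm 1, Ctrlf 3, Ctrlf 4, Ctrlf 5, cKOf 1, cKOf 3 or cKOf 5 and lost in the 16 other fits without 1 kidney (0.0542 to 0.0828). Pipox also lost it without Ctrlm 5 and cKOf 6 (0.102), without Ctrlm 2 and Ctrlf 5 (0.0511), without all 4 of these (0.121), when every gene with a count was tested (0.0516), with the hepatocyte covariate (0.180) and with a block for the replicate number (0.0873). The difference of Pipox ran from -0.58 to -0.42 over the 24 fits without 1 kidney. Over the 10 other alternatives it ran from -0.52 to -0.39.

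NADPH oxidases and their subunits, which make superoxide or hydrogen peroxide, were 12 genes, with 9 tested and 0 called with edgeR in males, in females or in the interaction. There were 6, 1 and 2 of 9 at an unadjusted p under 0.05. Limma-voom also called 0 in each, and DESeq2 called 2 lower in males and 0 otherwise. Their median male log2 fold change was -0.40, with 7 of 9 below 0. Nox4, the most abundant, went the other way, from 431 ± 47.8 to 538 ± 96.3 CPM (SD, n = 6, log2 fold change 0.32, edgeR adjusted p = 0.176), and the list summed to 653 to 771 CPM in Ctrlm and 689.8 to 891 CPM in cKOm kidneys. Nox1, Noxa1 and Duox1, at no more than 7, 1 and 14 counts in any kidney, were not tested. Of 9 genes for selenium supply and selenoprotein synthesis, which Gpx1, Gpx3 and Gpx4 depend on, Selenop was called lower in males. DESeq2 called 4 of the 9 lower, limma-voom 1, and 4 had an unadjusted p under 0.05 in edgeR. Selenop went from 3338 ± 493 CPM in Ctrlm to 2181 ± 97.2 CPM in cKOm kidneys (SD, n = 6), a log2 fold change of -0.61 (edgeR adjusted p = 3.13e-05). Its interaction was -0.83 (edgeR adjusted p = 1.79e-04), with 1340.0 ± 147 CPM in Ctrlf and 1558 ± 132 CPM in cKOf kidneys (SD, n = 6). Between Ctrlm and Ctrlf kidneys, edgeR called 2 of 19 thiol and peroxidase genes higher in males and 0 lower, 6 and 1 of 10 peroxisomal oxidases, 0 and 1 of 9 NADPH oxidase genes, and 4 and 0 of 9 selenium genes.

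Gpx1, Gpx3 and Gpx4 share a feature that choosing them by symbol did not use, a selenocysteine encoded by a TGA codon that elsewhere ends translation. The coding sequences of the main GENCODE transcripts (GRCm38) were searched, and 3 of the 10 enzymes had a TGA in frame before the stop codon, each annotated as selenocysteine. It was codon 47 of Gpx1 (chr9:108339451-108339453, plus strand), codon 73 of Gpx3 (chr11:54907256-54907258, plus strand) and codon 73 of Gpx4 (chr10:80054737-80054739, plus strand). Capitals mark that codon, shown with 4 codons on either side to set the sites beside each other. In males, 2 of these selenoenzymes, Gpx1 and Gpx4, were called lower, and Gpx3 was not.
Gpx1: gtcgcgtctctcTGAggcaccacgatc
Gpx3: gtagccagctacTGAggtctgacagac
Gpx4: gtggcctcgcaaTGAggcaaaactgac

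The type 1 signal read by PEX5 lies at the end of a protein, so the ends of the coding sequences of the peroxisomal enzymes are shown. That of the mainly cytosolic Sod1 is set beside them. Capitals mark the last 3 codons, which precede the stop codon and need not span the whole signal. They lie at chr2:103454759-103454767 (minus strand) for Cat, at chr19:6906849-6906857 (minus strand) for Prdx5 and at chr16:90226246-90226254 (plus strand) for Sod1, and each sequence is written in the direction of its transcript. Whether import of Cat or Prdx5 changed cannot be read from RNA.
Cat: aagggaaaaGCTAACCTGtaa
Prdx5: aacatcctcTCTCAACTCtga
Sod1: gtgattgggATTGCGCAGtaa

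Copies of the genes could take up reads that belong to the enzymes, and transcripts were compared with those of all other genes at 97% identity or more over at least 100 bases. Of the main transcript of Gpx4, 80.9% matched Gpx4-ps2, which had 29 to 101 counts per kidney against at least 2276 for Gpx4. Gm8566 matched 72.5% of Sod1 and had 1 to 19 counts, against at least 5776 for Sod1. Gm21399 and Gm7204 together matched 26.0% of Prdx1, with at most 8 and 6 counts. Reads that fit an enzyme and its copy equally well are not uniquely placed and were counted on neither gene. The counts of the copies therefore cannot show how many reads the enzymes lost, and the levels of Gpx4, Sod1 and Prdx1 may be understated. Sod2 matched Ctcfl over 1.72%, and Cat, Sod3, Prdx6, Gpx1 and Gpx3 had no match. Prdx5 shares 409 bases, 32.4% of its main transcript, with Trmt112 on the opposite strand, and Trmt112 had 126 to 297 counts against at least 8065 for Prdx5. If reads were counted without regard to strand, those on the shared bases belong to neither gene, and the level of Prdx5 would be understated. Trmt112 had a male log2 fold change of -0.05 (edgeR adjusted p = 0.945).

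The enzymes varied together within groups in some pairs. Over 24 kidneys, as deviations of log2 CPM from the group mean, r was 0.91 for Prdx1 and Prdx6, 0.90 for Prdx5 and Gpx4, and 0.88 for Sod1 and Prdx5. It was 0.69 for Sod3 and Gpx3 and -0.59 for Sod3 and Prdx1. These values share the kidneys that stood apart, Ctrlm 5 and cKOf 6, with high Sod1, Prdx5, Gpx4, Prdx1 and Prdx6, and Ctrlm 2 and Ctrlf 5, with high Prdx1 and Prdx6.

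Of the tested genes with a symbol, leaving out the 10 enzymes, the pair with the highest r to each enzyme over the 24 kidneys is given as a description. The r of deviations from group means is in brackets. For Cat they were Pm20d1 at 0.83 (0.76) and Shmt2 at 0.80 (0.55). For Prdx5 they were Defb29 at 0.93 (0.86) and Ccdc107 at 0.93 (0.81), and for Gpx1 they were Slc25a39 at 0.93 (0.83) and Gss at 0.91 (0.85). Sod1 had Ttc36 at 0.95 (0.92) and Fah at 0.92 (0.86), and Prdx1 had Cda at 0.94 (0.91) and Med28 at 0.93 (0.89). Gpx4 had Eif5a at 0.92 (0.89) and Syngr2 at 0.92 (0.88), and Prdx6 had Iah1 at 0.93 (0.92) and Sdhd at 0.92 (0.91). Sod2 had Calml4 at 0.87 (0.79) and Eif4e at 0.85 (0.81). Sod3 had Psme3 at 0.89 (0.92) and Eif2ak1 at 0.89 (0.88), and Gpx3 had Ywhaq at 0.84 (0.90) and Klc2 at 0.82 (0.79). The highest r for Cat was the lowest of the 10.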

How the data were processed

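RNA of 24 whole kidneys was sequenced from poly(A) libraries. The authors deposited 1 file of counts per kidney, whole numbers of reads per gene without normalization, made with cutadapt 1.8, STAR 2.5.3a and HTSeq 0.9.1 on GRCm38 by the submitters' notes. Whether counting used the strand is not stated in the sources used here. Each file had 55335 genes, of which 55154 were named from GENCODE M21, and 5 closing lines for reads not counted on genes. Reads not uniquely placed were 26.9% to 34.8% of the total. Groups came from the labels. Kidneys of a group differed by more than sampling noise (60 pairs had a chi-square between 9.24 and 91.1 per degree of freedom), and the spread between mice gives the errors.

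Genes reaching 1 CPM in any kidney were fitted in R 4.3.3 with edgeR 4.0.16 (TMM, quasi-likelihood, 1 model of 4 groups). Benjamini-Hochberg adjustment covered male and female tests jointly, and all genes in the tests of the interaction and of Ctrlm against Ctrlf. Log2 CPM used a prior count of 2. Exact permutation tests were two-sided, on mean log2 CPM, over all arrangements of 6 kidneys against 6, for 10 enzymes in each sex, and their p values are given without adjustment. The procedure was tested on simulated data. Alternatives were limma-voom 3.58.1, DESeq2 1.42.0, every gene with a count, RLE normalization, 1 CPM in at least 6 kidneys, adjustment within each sex, each sex alone, the hepatocyte score as a covariate, the replicate number as a block, each kidney left out, and, chosen after seeing the data, the kidneys that stood apart left out. Transcripts were compared with BLAST 2.17.0. Python 3.11.15, numpy 2.4.6, pandas 2.3.3 and matplotlib 3.10.9 made tables and figures.

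Named genes are Pex5, the enzymes, called or untested genes of the 4 pathway lists, the most abundant and called genes of each cell type list, and 2 genes most like each enzyme. The hepatocyte markers Ahsg, Apoh and Tat, Nox4, Cyp11b2, and the copies and overlapping genes of the enzymes were named after their values were seen. So were Prdx2, Prdx3, Prdx4, Gpx6, Gpx7 and Gpx8. The members and lists were chosen with earlier results of these data known. Other experiments of the study were not analysed here.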

Additional observations from a re-analysis of the deposited data

Results flagged for a closer look

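In 96 sets of 6 kidneys (levels of the enzymes and of Pex5, and sums of gene lists, in each group), 19 had a kidney far from the rest of its group. Chance gives this in about 1 in 20 sets.

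Sod1 was at 649.8 CPM in Ctrlm 5, where the nearest kidney had 466, and at 370.5 CPM in Ctrlf 4 (nearest 331). In Ctrlf 5, Prdx1 was at 648 CPM (nearest 355) and Prdx6 at 171 CPM (nearest 126). In cKOf 6, Prdx1 was at 439 CPM (nearest 319), Prdx5 at 664 (nearest 489), Prdx6 at 138 (nearest 112), Gpx1 at 1181 (nearest 819) and Gpx4 at 215 (nearest 139.7). Low kidneys were cKOm 5 for Prdx5, at 359.9 CPM under 400.0, and cKOm 4 for Gpx3, at 26696 CPM under 38339.

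Among the gene lists, cKOf 6 was apart for the summed CPM of selenoprotein synthesis (2410.4), of hepatocyte markers (292) and, at the low end, of endothelial markers (405). The thiol and peroxidase list was high in Ctrlf 5 (1827). Adipocyte markers were high in cKOm 1 (132) and Ctrlf 6 (379.6, nearest 17.7), and leukocyte markers in cKOm 3 (97.1) and Ctrlf 1 (185).

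For 6 named genes, the effect of genotype was not the same in males and females by the edgeR test of the interaction. The male minus female differences in log2 fold change were -0.37 for Cat (adjusted p = 0.0395), -0.70 for Prdx5 (0.0293), -0.74 for Acox3 (1.39e-04), -0.50 for Pipox (0.0422), -0.83 for Selenop (1.79e-04) and -1.33 for Cyp2e1 (0.0190). That of Cyp2e1 missed the threshold without Ctrlm 5 and cKOf 6 (0.0574) and without these and Ctrlm 2 and Ctrlf 5 (0.0626), and those of Cat, Prdx5 and Pipox were lost in several fits, as given above.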

How the results depend on the processing

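Counts of genes called stayed within 1.5 times the reported ones over the alternatives, apart from 4. With the hepatocyte score as a covariate, 832 genes were called in males, against 1456, and 1510 between Ctrlm and Ctrlf kidneys, against 2707. With adjustment within each sex, 43 were called in females, against 137, since the male tests no longer share the adjustment. With DESeq2, 574 were called for the interaction, against 372, and the cause was not tested. In these settings the cause of the covariate's effect was not tested either. Alb, itself part of the score, had a male log2 fold change of 0.0284 with that covariate (adjusted p = 0.990) in place of -2.38.

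Leaving out 1 kidney gave 1173 to 1471 genes in males, 108 to 173 in females, 281 to 476 for the interaction and 2332 to 2766 between controls. Of the enzymes, 4 to 7 were called in males and 0 in females over all settings.

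Cat, Prdx1, Prdx5 and Gpx1 kept their male call in all 12 other alternatives and all 12 fits without 1 male kidney. The highest adjusted p values over the alternatives were 0.0341, 0.04996, 0.00456 and 0.0132, all with the covariate.

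With the replicate number as a block, 1268 genes were called in males, 110 in females, 271 for the interaction and 2415 between controls. Cat (0.00974), Prdx1, Prdx5 and Gpx1 stayed past the threshold with the block, Sod1 (0.0649) and Gpx4 (0.0890) did not, nor did the interactions of Cat (0.0628) and Prdx5 (0.0604). Kidneys with the same number come from different mice, and their pairing was not borne out. Correlations of deviations from group means were -0.20 to 0.12 over 36 pairs with the same number (median -0.04), and the median was 0.00 over 180 other pairs.

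The exact tests gave 8 unadjusted p values under 0.05, all in males, on mean log2 CPM and also on mean CPM.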
